A study of Mus musculus with 20 samples.

Results

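Interleukins and their receptors were followed across the treatment groups of a mouse study of head and neck squamous cell carcinoma. The members were chosen by name: every row of the count table whose Ensembl identifier carries a mouse symbol made of Il and a digit was taken, which gave 83 of 54309 rows. The 83 comprised 37 ligands, 41 receptors or receptor chains, 3 secreted inhibitors, 1 enzyme named for its induction by interleukin-4 (Il4i1) and 1 noncoding RNA antisense to Il1b (Il1bos).

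Bulk messenger RNA was sequenced from SCCVII tumors, a mouse squamous carcinoma cell line grown under the skin of immunocompetent C3H/He-OuJ mice, whose age is not given in the sources used here. There were 20 libraries in 10 groups of 2, with replicates A and B in each. Control tumors received none of the agents, and 3 groups received a single agent, which was APG-157, Anti-PD-1 or Anti-CTLA-4. The pairs were APG-157 + Anti-PD-1, then APG-157 + Anti-CTLA-4, and lastly Anti-PD-1 + Anti-CTLA-4 (here the double blockade), and 1 group received all 3 agents (the triple combination). The last 2 groups received Anti-CD8, either alone or on top of APG-157 + Anti-CTLA-4 (the depleted combination). APG-157 is a botanical drug that contains curcumin and was given by mouth in the food. PD-1 and CTLA-4 are inhibitory receptors of T cells, and the antibodies to them were injected into the peritoneum. The anti-CD8 antibody removes CD8+ T cells, and in the study it belonged to a separate mouse experiment. The labels do not say from which experiment the 2 Control libraries came, so experiment and depletion cannot be told apart in a comparison of the Anti-CD8 groups with any other group. The labels also do not say whether replicates A and B are separate tumors, so the p-values reflect no more than how far apart these libraries lie.

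Interleukins are secreted proteins through which immune, stromal and epithelial cells signal to each other over short distances. They act through paired receptor chains, and several chains are shared: the common gamma chain serves IL-2, IL-4, IL-7, IL-9, IL-15 and IL-21, gp130 serves the interleukin-6 family, and the IL-1 receptor accessory protein serves IL-1, IL-33 and IL-36. In tumors, the family includes growth and survival factors of lymphocytes, inducers of interferon-gamma, and alarm signals released by stressed epithelium and stroma.

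The libraries held 43.9 to 72.1 M estimated counts. They were labelled as head and neck cancer cells, and the keratins of simple epithelium were high in all 20 (Krt8 at 508 to 981 CPM, read counts scaled to library size), while Krt5 and Krt14, the keratins that define squamous epithelium, did not exceed 0.0539 and 0.292 CPM outside the groups with Anti-CD8. Cd8a, the target of the depleting antibody, was at 0.144 and 0.121 CPM in the Anti-CD8 libraries and at 0.26 and 0.381 CPM in the depleted combination, against 5.66 and 6.67 CPM in Control. Replicate B of the depleted combination stood apart (the adipocyte-rich library below), with Adipoq, an adipocyte hormone, at 355 CPM and the epithelial adhesion genes Epcam and Cdh1 at 218 and 224 CPM, whereas no other library exceeded 3.03, 0.608 and 9.03 CPM. The skeletal muscle list (6 of 6 genes detected) had a mean log2 level above 7 in 3 libraries (muscle-rich below), which were Anti-CTLA-4 B, APG-157 + Anti-PD-1 A and replicate A of the triple combination. The T cell list (10 genes, mean log2 level) was at 4.21 in Anti-CTLA-4 A and 0.18 in Anti-CTLA-4 B, and at 4.29 and 1.31 in the triple combination, so replicates of 1 group differed widely in T cell RNA. By contrast, the 2 APG-157 + Anti-CTLA-4 libraries were unusually alike, with a coefficient of variation beyond counting error of 4.23% against 20.9% to 68.3% in the other groups, although they still differed by more than sampling noise. In bulk tissue, fewer cells of a type and less RNA per cell cannot be told apart.

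Of the 83 members, 51 had enough counts to be tested (at least 10 counts in at least 2 libraries after scaling for depth, and 15 in all), 26 had counts but fell under that filter, and 6 had none in any library. Receptors were measured far more often than the ligands that bind them: 31 of 41 receptor chains were tested, against 17 of 37 ligands and 2 of 3 inhibitors. The 6 members with no counts were all ligands, namely Il9, Il17a, Il20, Il22, Il31 and Il1f10, and 0 counts in 1118 M allow a level of up to 0.00268 CPM. Several hallmark T cell cytokines were close to that limit, since Il2 had 9 counts over all 20 libraries, Il4 had 12, Il13 had 3 and Il3 had 1. By family, 14 of 20 IL-1 family members were tested, 13 of 17 of the common gamma chain family (in which Il13 and its 2 receptors were placed), 7 of 10 of the gp130 family, 4 of 6 of the IL-12 family, 2 of 4 of the common beta chain family, 4 of 11 of the IL-10 family and 4 of 11 of the IL-17 family. Because a member could pass the filter through the groups in which it was high, the 51 are not all the members, and 40 of the 83 had 10 or more counts in every library.

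**Figure D1:**
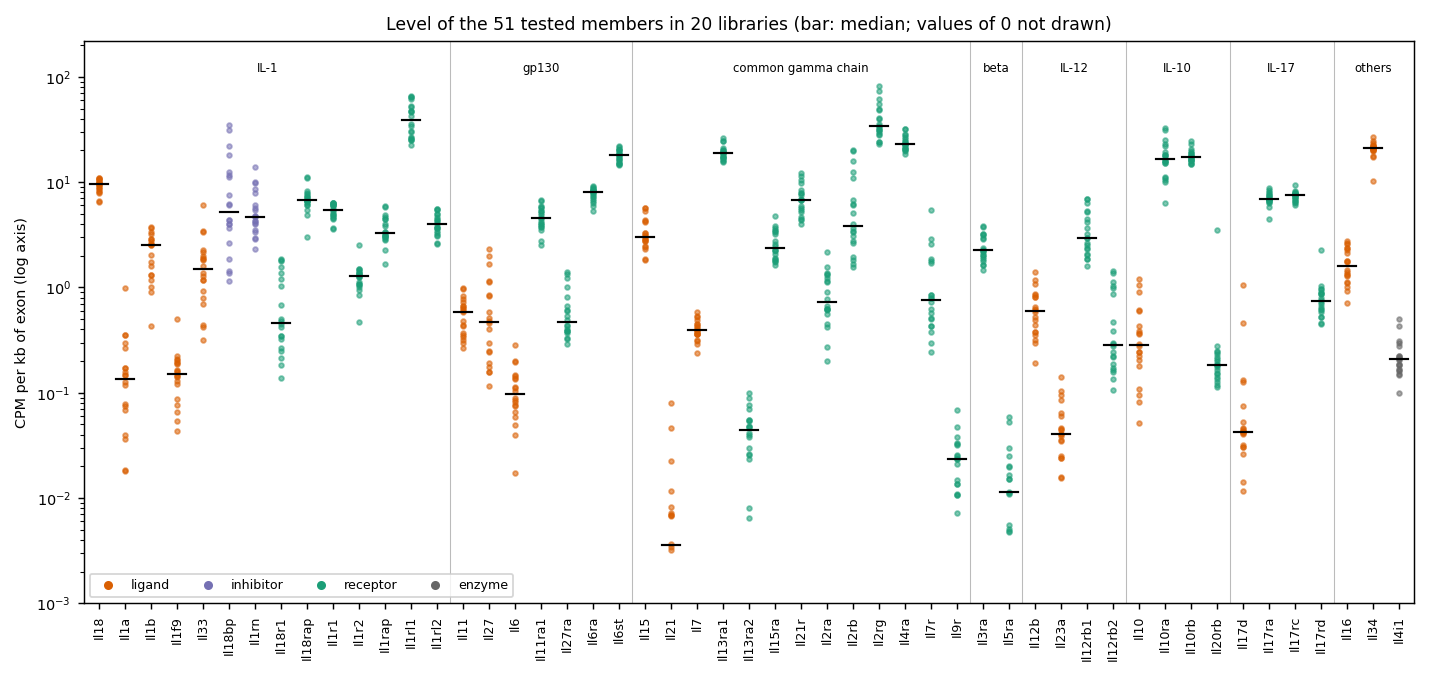
Level of each of the 51 tested members, in CPM per kb of exon on a log axis, with 1 point per library (20 libraries), a bar at the median, colors for the role and vertical lines between families. The receptors Il1rl1 and Il2rg lie at the top, while Il21, Il5ra and Il9r lie lowest, and values of 0 are not drawn.

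Levels between genes were compared per kilobase of exon. By that measure 8 members averaged above 10 CPM per kb, and 7 of the 8 were receptors: Il1rl1 at 41.4, Il2rg at 40.2, Il4ra at 24.0, Il13ra1 at 19.3, Il6st and Il10rb at 17.9 each, and Il10ra at 17.6. Il1rl1 encodes ST2, the receptor of IL-33, and Il2rg encodes the common gamma chain itself. The only ligand above 10 was Il34, at 20.8, which signals through the CSF-1 receptor of macrophages. A further 22 members lay between 1 and 10, led by Il18bp, the secreted inhibitor of IL-18, at 9.47 and Il18 at 9.27, and 21 averaged less than 1, of which 11 were ligands.

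Ligand and receptor levels therefore did not run in parallel. Il33, the ligand of the most abundant receptor, averaged 1.76 CPM per kb. The 2 chains of the IL-18 receptor also differed, with Il18rap at 7.00 and Il18r1 at 0.76 CPM per kb. Il6 averaged 0.11 CPM per kb although its receptor Il6ra was at 7.72 and the shared signal chain Il6st at 17.9.

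The proinflammatory cytokines Il1b and Il6 and the IL-2 receptor alpha chain Il2ra, a marker of activated and regulatory T cells, were measured in all 20 libraries. Il1b ran from 0.824 to 7.07 CPM, with a median of 4.81, and both extremes came from the same group, APG-157 A and APG-157 B. Il6 ran from 0.0423 to 0.684 CPM, that is from 2 to 29 counts in a library. Il2ra ran from 1.15 CPM in APG-157 B to 12.3 CPM in replicate A of the double blockade, and its replicates differed by a median of 0.92 on the log2 scale. None of the 3 passed the test for a difference among the 10 groups (edgeR quasi-likelihood test, adjusted p = 0.893 for Il1b, 0.839 for Il6 and 0.594 for Il2ra).

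**Figure D2:**
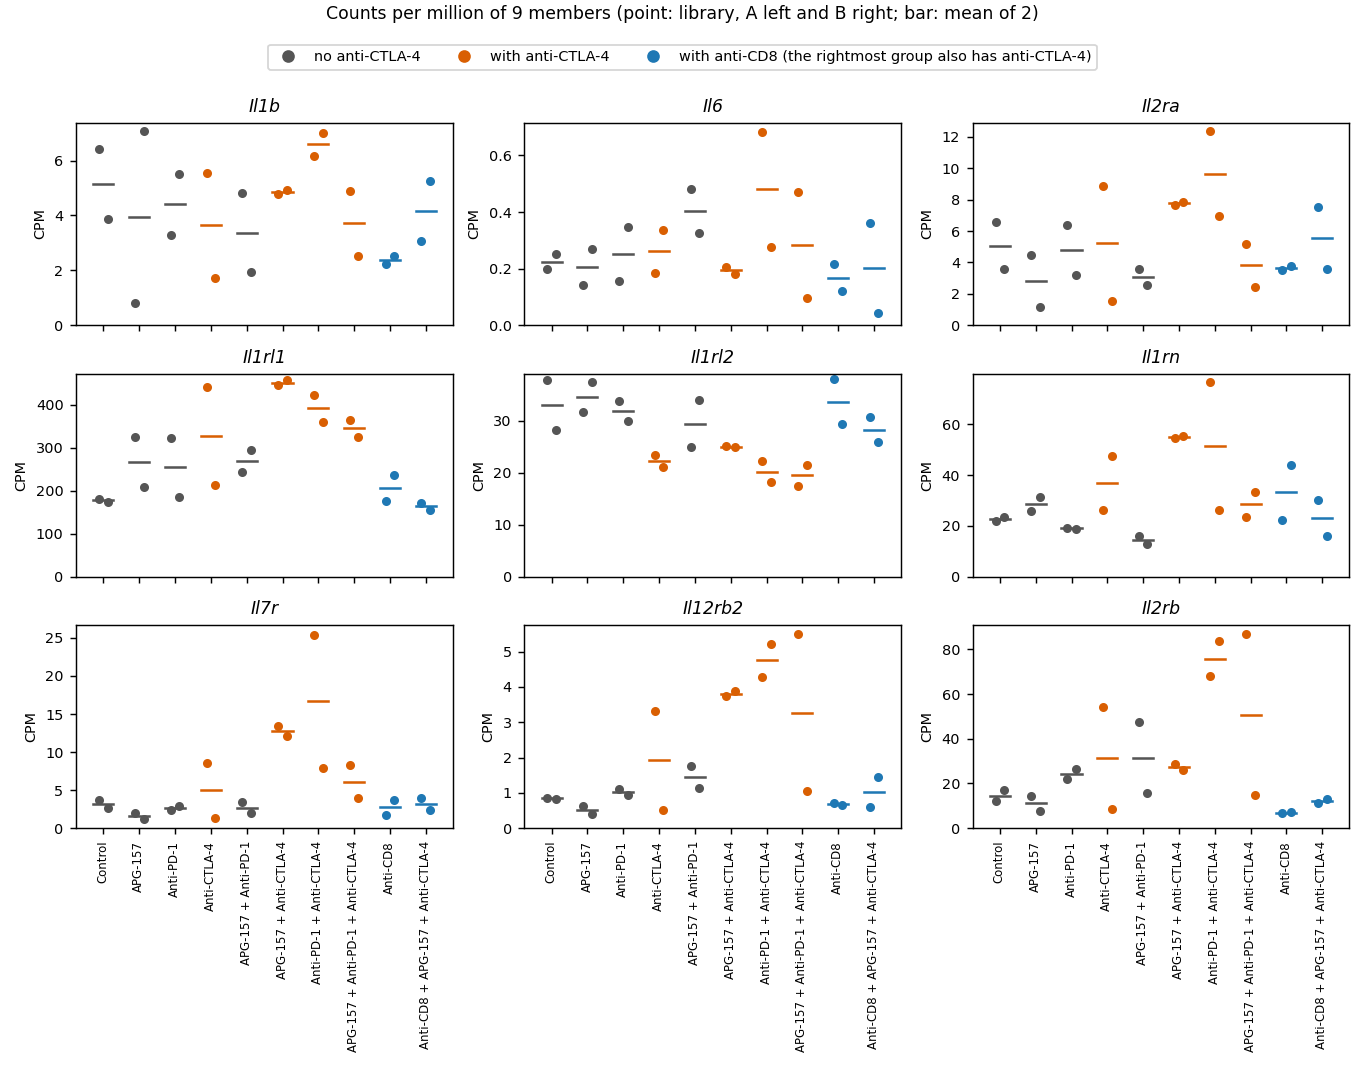
CPM of 9 members in every library, with the 10 groups on the x axis, replicate A to the left of replicate B, and a bar at the mean of 2. Il1rl2 lies between 17.4 and 25.2 CPM in the orange groups (undepleted, with anti-CTLA-4) and at 30.7 and 25.8 CPM in the rightmost blue group (the depleted combination, also with anti-CTLA-4), while the points of Il7r, Il12rb2 and Il2rb split widely within Anti-CTLA-4 and within the triple combination.

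Across all 20 libraries the tested members varied more than genes in general. Their median standard deviation was 0.51 on the log2(CPM + 0.1) scale, against 0.34 over all 19567 genes tested. The median gap between replicates A and B was also wider, 0.38 against 0.26. The median share of a member's variance that lay between groups was 59.3%, against 55.4% over all genes and 47.4% expected with no group difference. The most variable members were Il18bp (SD 1.46), Il2rb (1.17), Il18r1 (1.16), Il7r (1.16) and Il12rb2 (1.13), and the steadiest were the IL-17 receptor chain Il17rc (0.15), Il10rb and Il6st (0.19 each). Il17rc was named after its values were seen.

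**Figure D3:**
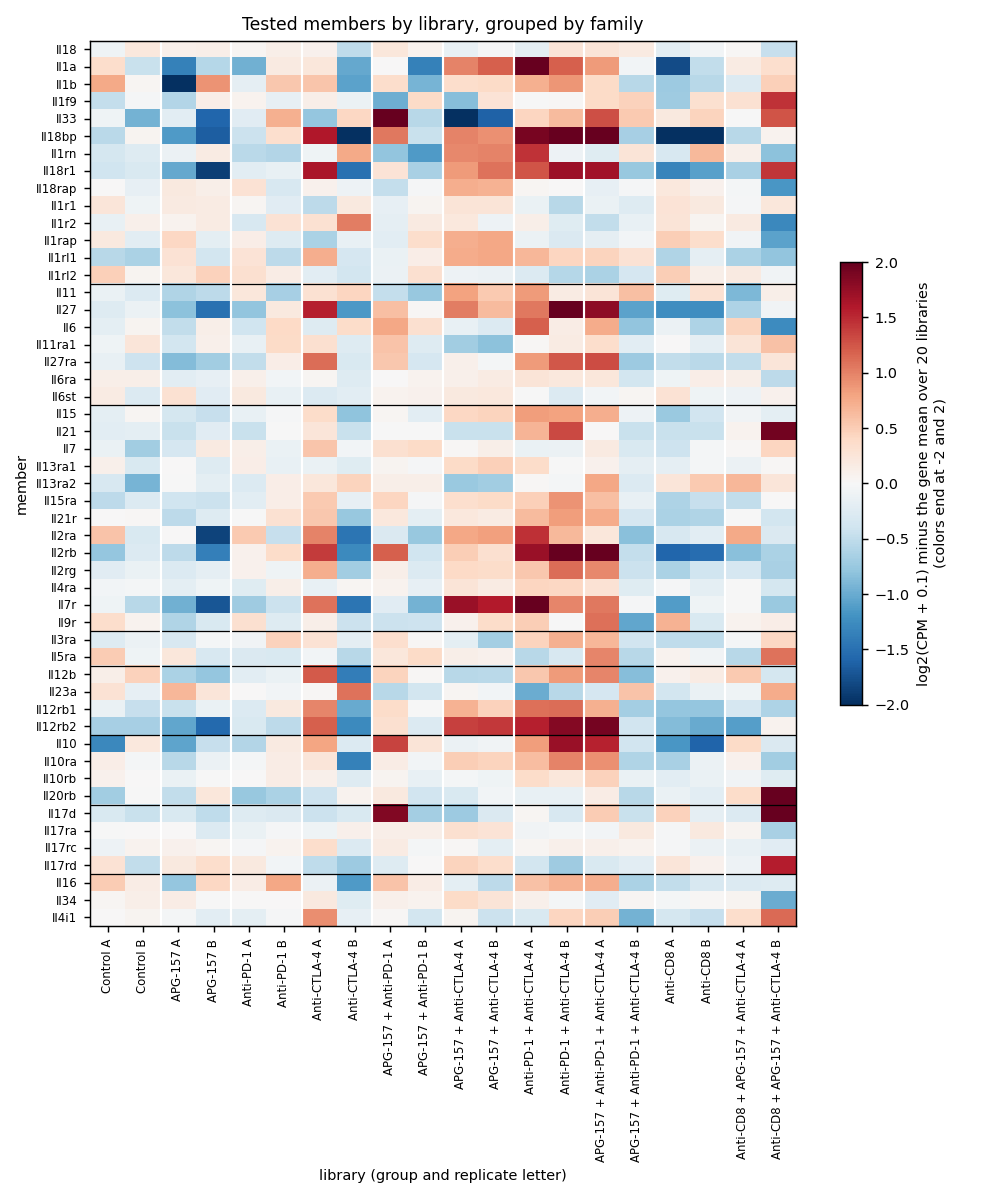
Difference of each tested member from its own mean over the 20 libraries, in log2(CPM + 0.1), with members in rows by family and libraries in columns, and colors ending at -2 and 2. Il18bp, Il18r1, Il27, Il2rb, Il7r and Il12rb2 are above their means in Anti-CTLA-4 A, both libraries of the double blockade and replicate A of the triple combination, and below them in Anti-CTLA-4 B and both Anti-CD8 libraries, where Il7r in replicate B lay only 0.09 below.

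A test for any difference among the 10 groups called none of the 51 members at an adjusted p under 0.05 (edgeR, 0.879% of all genes called), while 14 had an unadjusted p under 0.05 (16.5% of all genes). DESeq2 called 16 at an adjusted p under 0.05 (31.4% of members, 17.1% of all genes). The smallest adjusted p in edgeR was that of Il20rb, a chain of the receptors for IL-19, IL-20 and IL-24, at 0.071. It was followed by Il7r (0.138), Il1rl2 (0.145), Il1rl1 (0.160), Il12rb2 (0.185) and Il15ra (0.196). Without replicate A of the depleted combination the test called 7 members, 13.7% of them, against 15.3% of all genes.

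The effect of CTLA-4 blockade was estimated as a main effect over the 8 groups without depletion, comparing 8 libraries with the antibody against 8 without it. A single member was called, Il1rl2, which was lower with the antibody (1.96% of 51 members, against 0.25% of all genes). At an unadjusted p under 0.05 there were 17 members (10.1% of all genes), of which 16 were higher (5.84% of all genes) and 1 lower (4.26%). Of the 51 members, 39 had a positive log2 fold change, with a median of 0.16, against a median of -0.0042 over all genes. The count of calls was sensitive to single libraries and to the tool: it ran from 0 to 5 when 1 library was left out, with 5 without Anti-CTLA-4 B (0.905% of all genes) and 3 without the triple combination's B (0.629%). It was 3 without the adipocyte-rich library (0.93%), and DESeq2 called 10 (3.02%).

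**Figure D4:**
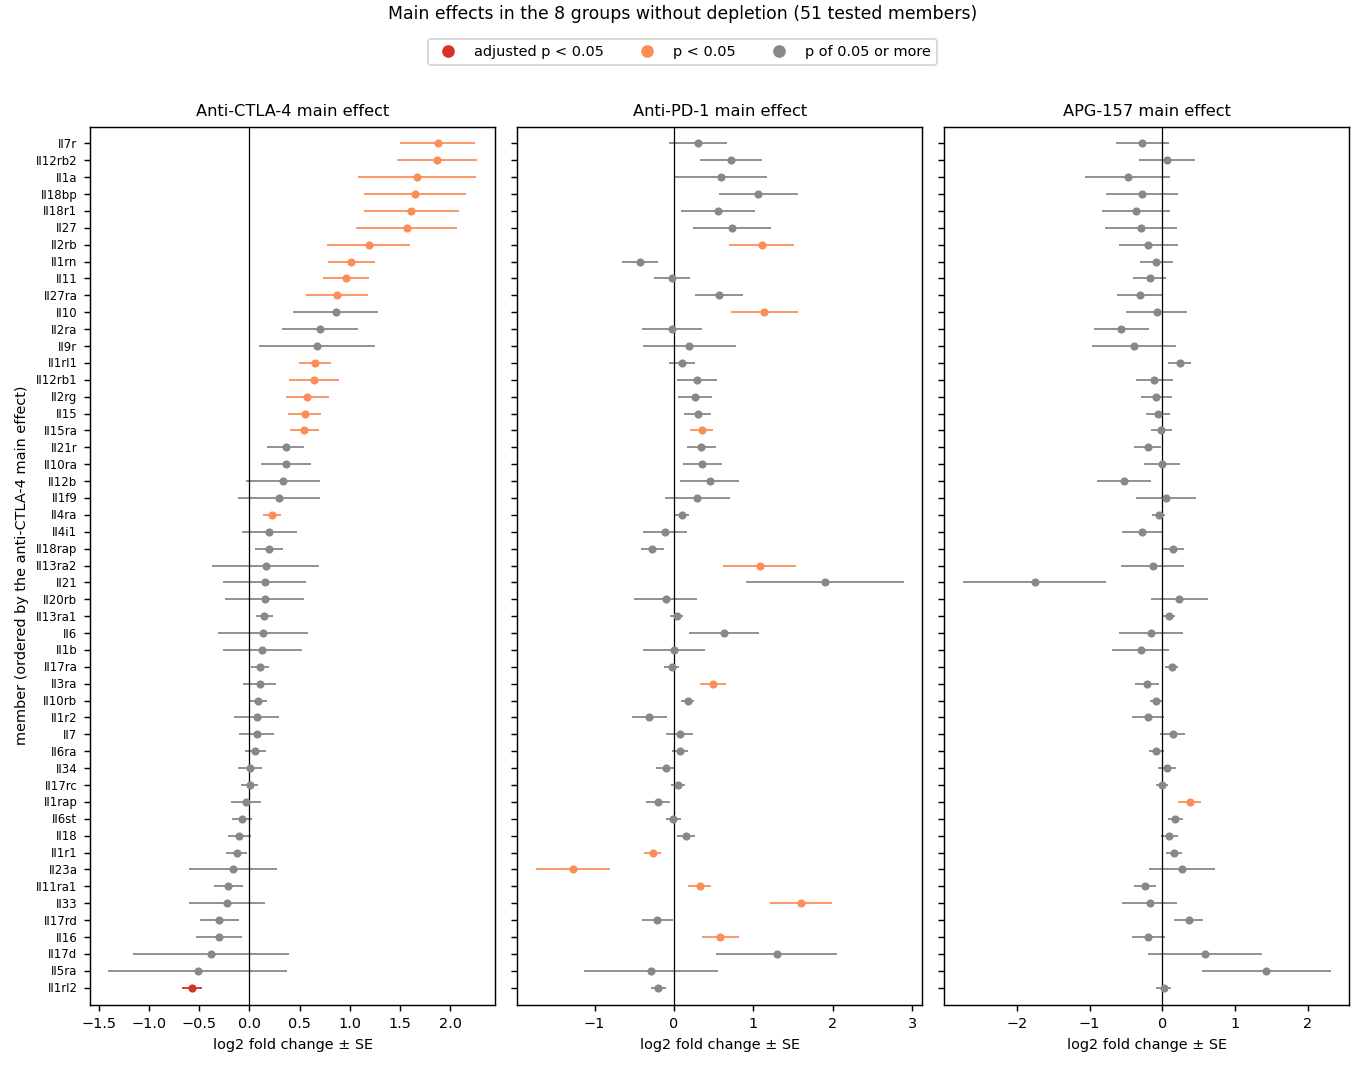
Log2 fold change with its standard error for the 51 tested members in the main effects of anti-CTLA-4, anti-PD-1 and APG-157 (8 libraries with and 8 without each agent), ordered by the first. Il1rl2 at the bottom left is the only member with an adjusted p under 0.05, and most points of the anti-CTLA-4 panel lie to the right of 0.

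Il1rl2 encodes the receptor of the IL-36 cytokines, which are released mainly by epithelial cells. Its level was 37.7 and 28.1 CPM in Control, 31.6 and 37.4 in APG-157, 33.8 and 29.9 in Anti-PD-1, and 24.9 and 33.9 in APG-157 + Anti-PD-1. With the CTLA-4 antibody it was 23.4 and 21.0 CPM in Anti-CTLA-4, 25.2 and 24.9 in APG-157 + Anti-CTLA-4, 22.3 and 18.1 in the double blockade, and 17.4 and 21.5 in the triple combination. The 2 sets overlapped narrowly, and 7 of the 8 libraries with the antibody lay below all 8 without it. The depleted combination, which also received the antibody but did not enter this comparison, was at 30.7 and 25.8 CPM, above all 8. The log2 fold change was -0.57 (SE 0.10, edgeR adjusted p = 0.0427). The direction held whichever of the 16 libraries was left out (log2 fold change -0.63 to -0.52), but the adjusted p stayed under 0.05 only without APG-157 A, Anti-CTLA-4 B or the triple combination's B (0.0273 to 0.0431) and lay between 0.0517 and 0.145 without any of the other 13. The ligands of the receptor were scarce: Il1f9 (IL-36 gamma) was at 0.0713 to 0.825 CPM, and Il1f6 and Il1f8 (IL-36 alpha and beta) were almost confined to 1 library, described further down.

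Il1rl2 is 1 of 6 receptor genes of the IL-1 family that lie in a row on the plus strand of chromosome 1, in the order Il1r2, Il1r1, Il1rl2, Il1rl1, Il18r1 and Il18rap, from position 40074079 to 40551705 (GRCm38). In the anti-CTLA-4 main effect Il1rl1 and Il18r1 had positive values at an unadjusted p under 0.05, and the other 3 (Il1r2, Il1r1 and Il18rap) had an unadjusted p above that threshold. The windows of 250 bases before the annotated starts of Il1rl2 and Il1rl1, from RefSeq on GRCm38.p6, are shown because these neighbors gave the called decrease and the highest level. Il1rl1 has 2 annotated starts, and capitals mark matches to GATAAG (the motif that GATA factors bind) in its windows and to TATAAA, read here on the minus strand, in that of Il1rl2. The second Il1rl1 window lies inside the annotated span of Il1rl1 and holds exon bases of 1 annotated gene, which may be Il1rl1 itself.
Il1rl2 chr1:40324339-40324588, plus strand: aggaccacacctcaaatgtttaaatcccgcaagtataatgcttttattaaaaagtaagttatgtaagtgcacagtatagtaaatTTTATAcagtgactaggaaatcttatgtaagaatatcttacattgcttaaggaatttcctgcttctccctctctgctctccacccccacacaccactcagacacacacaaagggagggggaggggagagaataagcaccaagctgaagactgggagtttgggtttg
Il1rl1 chr1:40429320-40429569, plus strand: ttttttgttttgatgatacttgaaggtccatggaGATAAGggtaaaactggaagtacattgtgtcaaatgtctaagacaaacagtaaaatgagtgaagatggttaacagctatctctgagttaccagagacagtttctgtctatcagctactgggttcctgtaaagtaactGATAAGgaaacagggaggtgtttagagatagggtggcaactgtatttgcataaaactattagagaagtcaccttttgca
Il1rl1 chr1:40439379-40439628, plus strand: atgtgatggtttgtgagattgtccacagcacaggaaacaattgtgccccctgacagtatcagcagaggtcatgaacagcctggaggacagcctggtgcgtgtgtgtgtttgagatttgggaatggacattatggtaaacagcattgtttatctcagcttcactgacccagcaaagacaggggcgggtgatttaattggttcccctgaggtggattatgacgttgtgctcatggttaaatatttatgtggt

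Both strands were searched. GATAAG occurred 2 times in the upstream window of Il1rl1 and 0 times in the downstream one, and 8 of 81 member windows (9.88%) held it, against 6.55% of 32851 windows of all genes. TATAAA occurred in 13 of the 81 (16%), against 12.4% of all windows. A match describes the letters in the window and no more. The other 2 motifs searched were TTCNNNGAA, the spacing of STAT sites, in 9 of the 81 windows (11.1%, against 7.02%), and the core of the interferon-stimulated response element, in 2 of the 81 (2.47%, against 2.98%). Windows were matched by symbol for 66 of the 83 members.

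Il1rl1 itself was at 182 and 173 CPM in Control, 325 and 208 in APG-157, 323 and 186 in Anti-PD-1, and 244 and 294 in APG-157 + Anti-PD-1. It was at 441 and 213 CPM in Anti-CTLA-4, 446 and 457 in APG-157 + Anti-CTLA-4, 422 and 360 in the double blockade, and 364 and 326 in the triple combination. In all, 7 of the 8 libraries with the CTLA-4 antibody lay above all 8 without it, and the exception was Anti-CTLA-4 B. The main effect was 0.66 on the log2 scale (SE 0.16, edgeR adjusted p = 0.110, unadjusted p = 0.00127), which did not pass the threshold, and without Anti-CTLA-4 B it was 0.76 with an adjusted p of 0.0392. The mast cell and basophil list, cells known to carry ST2, had all 8 genes positive in the same comparison, with a median of 0.71 and none called, and its part in the result was not tested.

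Among the 17 ligands, 12 had a positive anti-CTLA-4 effect and 4 had an unadjusted p under 0.05, with none called. Il11, a gp130 cytokine of stromal and epithelial origin, ran from 1.25 to 2.08 CPM with the antibody and from 0.614 to 1.30 without it in the undepleted libraries. Of the 8 libraries with it, 7 lay above all 8 without (log2 fold change 0.96, SE 0.23, edgeR adjusted p = 0.0988). The depleted combination, also given the antibody, was at 0.550 and 1.205 CPM, and Anti-CD8 at 0.915 and 1.38 CPM. Il15, a survival factor of CD8+ T and natural killer cells, had a median of 9.77 CPM with and 6.42 without (0.55, SE 0.17, adjusted p = 0.221). Il1a and Il27 were at 0.56 and 1.16 CPM with and 0.15 and 0.44 CPM without at the median, and Il1a had at most 82 counts in a library. Il11, Il27 and several receptors of the next paragraphs fell outside the rule for named genes and were added after their values were seen.

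Both tested inhibitors were higher with the antibody at an unadjusted p under 0.05, and neither was called. Il1rn, the IL-1 receptor antagonist, was at 22.0 and 23.5 CPM in Control and 26.5 and 47.6 in Anti-CTLA-4, and it was at 54.6 and 55.6 CPM in APG-157 + Anti-CTLA-4, 76.7 and 26.1 in the double blockade, and 23.7 and 33.5 in the triple combination. In the 8 undepleted libraries without the CTLA-4 antibody it did not exceed 31.4 CPM (Anti-CD8 B was at 44.0), and the log2 fold change was 1.02 (SE 0.23, edgeR adjusted p = 0.0851). Il18bp spanned 4.32 to 104 CPM with the antibody and 5.62 to 37.4 without, and 4 of the 8 libraries with it lay above all 8 without (1.65, SE 0.50, adjusted p = 0.232). The lowest of all 8 was again Anti-CTLA-4 B.

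Of the 31 receptors, 24 had a positive anti-CTLA-4 effect, 10 at an unadjusted p under 0.05. All 10 receptors of the common gamma chain family were positive, with a median of 0.56. Il7r, the IL-7 receptor chain of naive and memory T cells, was at 3.73 and 2.68 CPM in Control, 8.61 and 1.39 in Anti-CTLA-4, 13.4 and 12.2 in APG-157 + Anti-CTLA-4, 25.5 and 7.95 in the double blockade, and 8.34 and 3.92 in the triple combination. It did not exceed 3.73 CPM in the 8 undepleted libraries without the antibody, and 7 of the 8 with it lay above that (1.87, SE 0.38, edgeR adjusted p = 0.062). Il2rb, the beta chain through which T and natural killer cells respond to IL-2 and IL-15, had a median of 41.5 CPM with and 16.3 CPM without, but 47.4 CPM was reached without the antibody in APG-157 + Anti-PD-1 A (1.19, SE 0.41, adjusted p = 0.294).

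Il12rb2, the inducible chain of the IL-12 receptor on T helper 1 and natural killer cells, was at 0.844 and 0.836 CPM in Control and 3.32 and 0.515 in Anti-CTLA-4. It was at 3.74 and 3.87 CPM in APG-157 + Anti-CTLA-4, 4.27 and 5.23 in the double blockade, and 5.49 and 1.05 in the triple combination, so 6 of 8 libraries lay above the 1.76 CPM that was the highest without the antibody. The log2 fold change was 1.86 (SE 0.40, edgeR adjusted p = 0.0718). Its promoter window, on the minus strand of chromosome 6, is shown because it holds a match to TTCNNNGAA, in capitals.
Il12rb2 chr6:67376189-67376438, minus strand: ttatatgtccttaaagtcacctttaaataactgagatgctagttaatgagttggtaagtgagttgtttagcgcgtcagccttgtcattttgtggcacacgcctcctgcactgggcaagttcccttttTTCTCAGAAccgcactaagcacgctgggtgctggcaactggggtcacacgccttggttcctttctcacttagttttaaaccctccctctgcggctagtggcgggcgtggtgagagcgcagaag

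Exons of Il12rb2 and Serbp1 overlap on opposite strands by up to 1419 bases in the GRCm38 annotation, and the strand setting of the counting was not given in the sources used here, so reads of the 2 genes may not have been kept apart. In all, 18 tested members share exon bases with another gene, 16 of them with a gene on the opposite strand. Il18bp shares 80 bases with Numa1, and Il1b shares 25 with Il1bos.

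Markers of lymphocytes moved beside these receptors. In the anti-CTLA-4 main effect all 10 T cell genes were positive, 9 at an unadjusted p under 0.05, with a median of 1.60, and all 4 natural killer genes were positive with a median of 1.09; no gene of either list was called. Across libraries the T cell list spanned -0.05 to 4.74 in mean log2 level, and among the 8 undepleted libraries with the antibody, the 2 in which Il7r, Il12rb2, Il2rb and Il18bp were lowest, Anti-CTLA-4 B and the triple combination's B, had T cell values of 0.18 and 1.31. The part of T cell RNA in the receptor levels was not tested. The 3 muscle-rich libraries were also left out, a choice made after seeing the data. The members named next were picked by their adjusted p in that fit. It leaves 1 library in some groups, so only effect sizes are given. Il12rb1, Il12rb2, Il15, Il18bp, Il2rb and Il7r were higher (log2 fold change 0.58 to 2.01) and Il1rl2 was lower (-0.57). The choice removed Anti-CTLA-4 B, the lowest library with the antibody for all 6 higher members. It also removed APG-157 + Anti-PD-1 A, the highest without the antibody for Il12rb1, Il12rb2, Il18bp and Il2rb. Both removals by themselves favor higher values. The third library, replicate A of the triple combination, was the highest with the antibody for Il12rb2 and Il2rb.

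Of 47 signalling partners of these receptors that lie outside the symbol rule (adaptors, kinases, STAT factors, their inhibitors and related cytokines), 36 had a positive anti-CTLA-4 effect, 13 at an unadjusted p under 0.05 and 0 called by edgeR. The smallest adjusted p belonged to Clcf1, a gp130 cytokine (log2 fold change 0.86, adjusted p = 0.0688), and to Socs1, an inhibitor of JAK signalling (0.98, adjusted p = 0.0965).

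The main effect of PD-1 blockade, again 8 libraries against 8, called 0 members in edgeR (0% of all genes). At an unadjusted p under 0.05 there were 10 members (8.77% of all genes), 8 of them higher (5.69%) and 2 lower (3.08%), and DESeq2 called 1, Il33 (0.782% of all genes). This alarm cytokine of stromal and endothelial nuclei was at 3.73 and 2.02 CPM in Control, 3.38 and 6.60 in Anti-PD-1, 17.6 and 2.67 in APG-157 + Anti-PD-1, 5.40 and 6.25 in the double blockade, and 9.87 and 5.80 in the triple combination. Among groups without the antibody it was lowest in APG-157 + Anti-CTLA-4, at 0.912 and 1.22 CPM. In all, 6 of the 8 libraries with the antibody lay above 5.31 CPM, the highest of the 8 undepleted libraries without it. Outside that comparison, Anti-CD8 B was at 5.47 CPM and the depleted combination's B at 9.66 CPM, also without the antibody. The log2 fold change was 1.60 (SE 0.39, edgeR adjusted p = 0.561; DESeq2 adjusted p = 0.00547). The 2 highest values fell in muscle-rich libraries, and the skeletal muscle list was also higher with anti-PD-1 (all 6 genes, median log2 fold change 4.07). Without the 3 muscle-rich libraries the Il33 value was 1.202. The fibroblast list was positive in all 8 genes, 6 at an unadjusted p under 0.05, with a median of 0.45. It was at 8.18 and 7.61 in the 2 libraries with the highest Il33 and at 5.59 in both with the lowest, among the 16 compared. The part of either list in the Il33 values was not tested.

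Beside Il33, Il3ra, the IL-3 receptor alpha chain, had a median of 9.14 CPM with the PD-1 antibody and 6.04 without (0.49, SE 0.16, edgeR adjusted p = 0.561), and the immunoregulatory cytokine Il10 had 0.654 and 0.344 CPM (1.14, SE 0.42, adjusted p = 0.561). The lower members were Il23a, a subunit of IL-23, at a median of 0.0554 CPM with and 0.119 without (-1.28, SE 0.47), which rests on 0 to 18 counts in a library, and the IL-1 receptor Il1r1 (-0.27, SE 0.11). All 5 tested IL-1 family ligands had positive values, with a median of 0.29. The T cell list was positive in all 10 genes, with a median of 1.55, and its part in these values was not tested.

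The main effect of APG-157 called 0 members in edgeR and 0 in DESeq2 (0% of all genes). A single member, Il1rap, the accessory chain shared by IL-1, IL-33 and IL-36 receptors, had an unadjusted p under 0.05 (7.36% of all genes), at a median of 44.6 CPM with APG-157 and 35.1 CPM without (log2 fold change 0.37, SE 0.15, adjusted p = 0.657). Of the 51 members, 33 had a negative value, with a median of -0.08 against -0.02 over all genes. Without the 3 muscle-rich libraries, the choice made after seeing the data, the members picked by their adjusted p in that fit were lower with APG-157. These were Il18bp at -1.29, Il2rb at -1.08 and Il21r, the IL-21 receptor, at -0.53. For each of the 3, that choice removed the 2 highest libraries with APG-157 and the lowest without it (Anti-CTLA-4 B). The removal by itself favors lower values, so this fit cannot decide whether APG-157 lowers these members. With all libraries Il2rb had a median of 20.7 CPM with APG-157 and 24.3 without, and its ranges overlapped. The interaction of APG-157 with anti-CTLA-4, the test of whether their joint effect departs from the sum of the single effects, called 0 members in edgeR and in DESeq2 (0.00511% of all genes). At an unadjusted p under 0.05 it gave 4 (10.1% of all genes), which were Il13ra2, Il13ra1, Il7r and Il1rap.

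Each treated group was also compared with Control. These 9 comparisons share the 2 Control libraries, so their values are given side by side and not as repeats of each other. None called a member in edgeR at an adjusted p under 0.05; the share of all genes called was 0.0204% for APG-157 + Anti-CTLA-4, 0.0102% for the depleted combination and 0% for the other 7. At an unadjusted p under 0.05 there were 0 members for APG-157 (0.761% of all genes) and 0 for Anti-PD-1 (0.618%). There were 3 for Anti-CTLA-4 (6.45%), namely Il1rl2, Il1rl1 and the IL-13 decoy receptor Il13ra2, and 2 for APG-157 + Anti-PD-1 (2.43%), namely Il33 and Il7. The triple combination had 5 (4.48%), namely Il1rl2, Il1rl1, Il12rb2, Il13ra2 and Il15ra. Anti-CD8 had 1 (1.19%), Il13ra2, with 7 and 13 counts against 3 and 0 in Control, and the depleted combination had 4 (19.1%), namely Il20rb, Il13ra2, Il17d and Il17rd. DESeq2 called 0 members in 7 of the 9 comparisons and 1 in each of the other 2, Il1rl1 for APG-157 + Anti-CTLA-4 (1.87% of all genes) and Il20rb for the depleted combination (6.85%).

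The double blockade gave the most members at an unadjusted p under 0.05, 16 of 51 (6.04% of all genes), with 14 higher (4.22%) and 2 lower (1.82%), and a median log2 fold change over the 51 of 0.46 against -0.04 over all genes. Il15ra, which presents IL-15 to neighboring cells, was at 15.7 and 21.0 CPM against 7.79 and 9.30 in Control (1.11, SE 0.29, adjusted p = 0.730). Il2rb was at 67.9 and 83.8 CPM against 11.9 and 17.0 (2.39, SE 0.85, adjusted p = 0.730), and Il18bp was at 66.6 and 104 against 12.2 and 18.5 (2.48, SE 1.04). Il1rl2 and Il23a were the 2 lower ones, Il23a with 0 and 2 counts against 8 and 4. A fit to these 2 groups alone called 6 members (11.8%), against 1.59% of all genes. The T cell list moved with these receptors, at 4.23 and 4.74 in mean log2 level against 1.76 and 2.21 in Control, and its part in their values was not tested.

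APG-157 + Anti-CTLA-4 gave 9 members at an unadjusted p under 0.05 (11.1% of all genes), with 8 higher (5.71%) and 1 lower (5.39%). Il1rl1 averaged 451 ± 7.51 CPM against 177 ± 6.51 in Control (SD, n = 2 libraries each, which may not be separate tumors). The log2 fold change was 1.35 (SE 0.33, edgeR adjusted p = 0.181, DESeq2 adjusted p = 0.0049). Il18rap was at 75.8 and 74.4 CPM against 45.8 and 40.9, Il1rap at 65.6 and 67.8 against 45.4 and 34.4, and Il13ra1, a chain of the IL-4 and IL-13 receptors, at 92.2 and 98.3 against 75.7 and 57.3. The lower member was Il11ra1, the IL-11 receptor, at 12.4 and 11.4 CPM against 19.01 and 23.72 (-0.85, SE 0.30, adjusted p = 0.379). A fit to these 2 groups alone called 8 members (15.7%), against 3.49% of all genes, and with the 2 alike libraries summed as 1 sample the adjusted p of Il1rl1 was 0.941. In the same comparison the fibroblast list was at 5.59 in both libraries against 7.17 and 6.96 in Control (mean log2 level), and the natural killer list at 2.78 and 2.75 against 0.816 and 1.69, and their part in these values was not tested.

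The last comparison asked how members differed between the depleted combination and the same agents without depletion, that is, APG-157 + Anti-CTLA-4. In edgeR 8 of 51 members were called (15.7%), against 19% of all genes, a share below that background. Of the 8, 5 were higher (10.8% of all genes) and 3 lower (8.18%), and 16 had an unadjusted p under 0.05 (38.3% of all genes). All 8 calls depended on single libraries, and so did nearly all calls over all genes. None of the 8 was called without replicate B of the depleted group, or without either replicate of APG-157 + Anti-CTLA-4. The same held with the latter 2 summed as 1 sample, and in each of these fits the calls over all genes nearly vanished. Without replicate A of the depleted group more were called, among members and among all genes. That last fit leaves the adipocyte-rich library as the whole depleted arm, and its spread is assumed to be that of the other groups.

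The 3 lower members were chains of the IL-33 and IL-18 receptors. Il1rl1 was at 172 and 155 CPM with depletion against 446 and 457 CPM (log2 fold change -1.47, SE 0.33, adjusted p = 0.0253, edgeR), and without the adipocyte-rich library it was -1.39 (adjusted p = 0.231). Il18rap was at 44.6 and 20.2 CPM against 75.8 and 74.4 (-1.21, SE 0.29, adjusted p = 0.0268), and Il1rap at 37.9 and 18.8 against 65.6 and 67.8 (-1.23, SE 0.31, adjusted p = 0.0285). For both, the lower of the 2 depleted libraries was the adipocyte-rich one, and without it the values were -0.75 and -0.81.

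Among the 5 higher members, Il20rb was at 1.16 and 14.8 CPM against 0.692 and 0.841 (3.37, SE 0.84, adjusted p = 0.0283), and the value fell to 0.60 (adjusted p = 0.560) without the adipocyte-rich library. Il33 was at 3.98 and 9.66 CPM against 0.912 and 1.22 (2.67, SE 0.81, adjusted p = 0.0398), and Il11ra1 at 24.0 and 30.1 against 12.4 and 11.4 (1.19, SE 0.30, adjusted p = 0.0286); in both, each depleted library lay above both others, and without the adipocyte-rich library the values were 1.90 and 1.02. Il11ra1 shares 19.3% of its 31-base words with its near copy Il11ra2, which had 21 counts in all against 23019 for Il11ra1. Il13ra2 rested on 14 and 6 counts against 1 and 1, a 10.7-fold ratio of CPM with a 95% counting interval of 2.61 to 94.6. Il21, a cytokine of follicular helper T cells, had 3 and 20 counts against 0 and 0, at least 8.22-fold higher when 3 counts over the group stand for 0. Of these 23 counts, 20 came from the adipocyte-rich library, and without it 3 counts were left (adjusted p = 0.393, edgeR), no more than the floor, so the bound rests on that library. Intervals and limits of this kind cover counting error only.

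Other cell types differed in the same comparison. The fibroblast list was higher (5 of 8 genes called, median 1.14), as were the endothelial list (3 of 5, median 1.06) and the adipocyte list (6 of 6, median 10.8). The T cell list had a median of -0.53, with 1 of 10 genes called lower, and the part of these lists in the interleukin values was not tested. Of the 47 signalling partners, 4 were called higher and 7 lower, among them Socs2 (2.82) and the cytokine Tslp (4.25) above and Stat6 (-0.70) and Nlrp3 (-1.01) below.

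**Figure D5:**
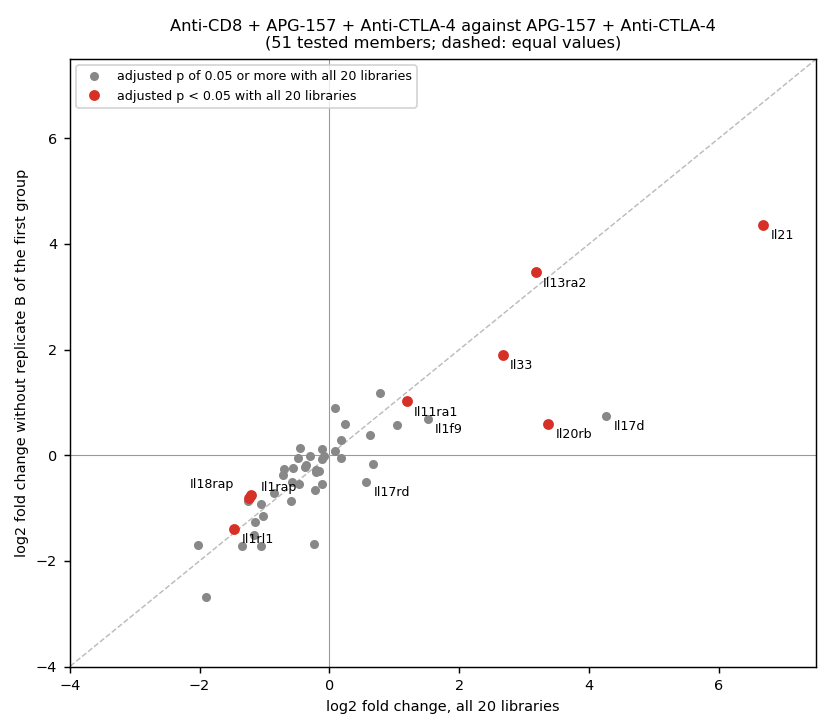
Log2 fold change of the 51 tested members between the depleted combination and APG-157 + Anti-CTLA-4 with all 20 libraries (x axis) and without replicate B of the depleted group (y axis), with equal values on the dashed line. Il20rb and Il17d fall from 3.37 and 4.27 to 0.60 and 0.75, while Il1rl1 stays at -1.39.

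A group of epithelial members was found almost entirely in the adipocyte-rich library, replicate B of the depleted combination. It held all 98 counts of Il22ra1, the IL-22 receptor of barrier epithelium, 180 of 183 counts of Il1f8, 28 of 30 of Il1f6, 531 of 541 of the IL-17C receptor Il17re (98.2%), and 427 of 468 of the IL-25 receptor Il17rb (91.2%). These 5 members did not pass the filter on low counts, which asked for 2 libraries. Il20rb had 698 of its 1526 counts there (45.7%) and Il17d 63 of 158. This was the same library in which Epcam and Cdh1 were at 218 and 224 CPM, and the origin of that RNA was not tested. These members were singled out after their counts were seen.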

How the data were processed

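Bulk RNA was extracted from the tumors and sequenced after poly(A) library preparation. Per the study's methods, the authors trimmed reads with Trimmomatic 0.39, quantified transcripts with Salmon (1.5.0 in the submitters' processing notes) against GENCODE vM27 on GRCm39, and summed them to genes with tximeta. The count table deposited by the authors holds each gene's estimated counts as Salmon and tximeta gave them, 71.5% of them whole numbers, in 20 libraries of 43.9 to 72.1 M; with 2 libraries a group, replicate spread limits the precision. The deposited log2 table held the same values after scaling by the authors and was used only as a check (largest difference 0.0047 over 10551 genes).

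Counts were rounded and fitted with edgeR 4.0.16 (R 4.3.3, TMM factors, quasi-likelihood test, 1 mean per group, 10 residual degrees of freedom) over the 19567 genes that passed filterByExpr (10 counts, 15 in all), with Benjamini-Hochberg adjustment over all of them. "Called" means an adjusted p under 0.05. Tests are two-sided. DESeq2 1.42.0, other filters and factors, a replicate block, summed libraries and fits without single libraries were alternatives. The fit was tested on simulated data with the same spread for all genes and groups. That test does not cover the unequal spread of the real groups. CPM used effective library sizes, and log2 values added 0.1 CPM. Symbols came from a table that matched 51484 of 54309 identifiers. Exon lengths, positions and promoter windows came from GRCm38 annotation (RefSeq windows, GRCm38.p6), another build than that of the files.

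Genes were named by rule: Il1b, Il6 and Il2ra, every called member, the 10 with the smallest p over the groups, the 3 with the smallest p in each direction of 6 comparisons, the 10 highest per length and the 5 with the widest replicate gaps. Members printed outside it (Il6ra, Il7, Il11, Il12rb1, Il17d, Il17rc, Il18r1, Il21r, Il27 and the scarce members) were chosen after their values were seen. Members and lists were chosen with earlier results of these data known.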

Additional observations from a re-analysis of the deposited data

How the results depend on the processing

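No called value changed its sign under the alternatives run. In the depletion comparison, 11 values of members that were not called changed sign, 5 without replicate A and 6 without replicate B of the depleted combination (smallest adjusted p with all libraries 0.308). Of the values followed for single genes under alternatives, 216 stayed on their side of the threshold, 18 passed it and 52 lost it. For anti-CTLA-4, 1 member was called, and the count was 0 with an absolute log2 fold change above 2 also required. It was 2 with no filter on low counts (0.229% of all genes) and 10 with DESeq2 (3.02%). Other fits leave 1 library in a group. There the count fell to none with the pair of libraries that were most alike (APG-157 + Anti-CTLA-4) summed, and fell or rose without single libraries. It rose without the adipocyte-rich library and without the 3 muscle-rich libraries (chosen after seeing the data). For the depletion comparison, 8 were called, and the count was 4, 5 and 0, respectively, under the first 3 of these, 0 to 14 without single libraries and 13 with DESeq2 (29.5% of all genes). For any difference among the groups the count rose from 0 to 2 with no filter, 7 without the muscle-rich libraries, 0 to 7 without single libraries (7 without replicate A of the depleted combination) and 16 with DESeq2. With no filter, 6.49% of members were called for depletion, against 5.92% of all genes. For any difference the shares were 2.6% and 0.857% with no filter, and 31.4% and 17.1% with DESeq2. Without replicate A of the depleted combination, the member share lay below that over all genes in both tests. Without the muscle-rich libraries it lay above that share for any difference. Both of these fits leave 1 library in a group. Against Control, fits to 2 groups called 6 members in the double blockade (1.59% of all genes) and 8 with APG-157 + Anti-CTLA-4 (3.49%) in place of 0. DESeq2 called 1 for the latter (1.87%) and 1 for the depleted combination (6.85%). Without replicate A of the depleted combination some members were called there, a smaller share than over all genes. DESeq2 called 1 for anti-PD-1 (0.782% of all genes). The APG-157 count rose without the muscle-rich libraries, in a fit that leaves 1 library in some groups. The members measured rose from 51 to 77 with no filter, and the between-group share moved from 59.3% to 57.7% with a pseudocount of 1. The cause of these shifts was not tested, except that single-library fits have fewer samples.

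The replicate letters were checked as a block. Deviations of same-lettered libraries correlated at -0.38 to 0.71 over 45 pairs of groups, 13 of them above 0.1, so no common pairing by letter was seen. Differences in tissue content between replicates enter these correlations, so the check cannot exclude a batch shared by letter. With the replicate block 0 members were called for anti-CTLA-4 (Il1rl2 adjusted p = 0.0567, edgeR), against 0.174% of all genes. For depletion 9 were called with the block, and its share over all genes is not given here. Without the block 8 were called (15.7% of members, against 19% of all genes).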

Other observations

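Il11ra2, a copy of the IL-11 receptor gene, had 21 counts in 6 libraries, 9 of them in replicate A of the depleted combination. It shares 70.2% of its 31-base words with Il11ra1, so its own value is uncertain. Il1bos, the antisense RNA of Il1b, had 54 counts in all.

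Il17d had 33 of its 158 counts in APG-157 + Anti-PD-1 A, at 0.588 CPM, while the other libraries outside the adipocyte-rich one did not exceed 0.170 CPM. Il24, a cytokine of the IL-10 family, had 52 counts over 15 libraries, at most 10 in any of them, and Il23r, a chain of the IL-23 receptor, had 85 counts over 18 libraries.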
